A study of Mus musculus with 4 samples.

Results

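Inhibitory receptors of T cells, together with the scavenger receptors CD5 and CD6, were examined in naive CD4 T cells of mice that lack BTG1 and BTG2 and of control mice. The 10 genes were given as a list (Cd5, Cd6, Btla, Pdcd1, Lag3, Tigit, Vsir, Cd200, Cd160 and Cd96), out of 48858 genes to which transcripts were summed. Of these, Cd200 encodes a ligand of an inhibitory receptor. RNA depleted of rRNA was sequenced from 4 libraries, 2 of double-knockout mice (DKO) and 2 of wild-type littermates (WT). The DKO mice carried floxed Btg1 and Btg2 together with Cre driven by Cd4 regulatory sequences, and the WT mice carried the same floxed alleles without Cre. The Cd4 promoter is active from the CD4+CD8+ stage of thymocyte development, so deletion precedes the mature naive cell and is not restricted to CD4 T cells. Cells had been sorted as TCRb+ CD4+ with CD25 absent, CD62L high and CD44 low, from what the labels describe as pairs of DKO and WT mice. Age and sex are not stated.

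Inhibitory receptors lower the response of a T cell to antigen. Most are members of the immunoglobulin superfamily whose cytoplasmic tails hold tyrosine motifs that, once phosphorylated, recruit the phosphatases SHP-1, SHP-2 or SHIP-1 to the antigen receptor. PD-1, LAG-3 and TIGIT are known as receptors that appear after activation and are kept on exhausted and regulatory T cells, whereas BTLA, VISTA, CD5, CD6 and CD96 are present on resting T cells. CD5 is set by the strength of self-peptide recognition in the thymus and is used as a readout of tonic signalling.

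Both deleted genes were nearly absent from the DKO libraries. Btg1 had 6.09 and 5.80 CPM (counts scaled to library sizes adjusted by TMM factors, edgeR's correction for composition) in DKO and 532 and 472 CPM in WT. Btg2 had 0.296 and 0.325 CPM in DKO and 93.4 and 92.5 CPM in WT. The libraries held 13889894 to 17827631 estimated counts, of which 44.7 and 48.9% in DKO and 38.9 and 35.7% in WT fell on protein-coding genes. The naive CD4 T cell markers were present in every library, with 2943 and 2942 CPM in DKO and 2478 and 2925 CPM in WT summed over 10 genes. Of the CD8 coreceptor chains, Cd8a had 1 to 6 counts per library, while Cd8b1 had 145 and 280 counts in DKO and 94 and 86 counts in WT (log2 0.60, unadjusted p = 0.0424, edgeR adjusted p = 0.603).

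None of the 10 genes passed the test between DKO and WT, and 6 of them lay above WT in both DKO libraries. All 10 passed the low-count filter, and edgeR's quasi-likelihood test over 12863 genes called 0.0544% of genes higher and 0.07% lower in DKO, 0.124% in either direction. Without adjustment 4 of the 10 were higher in DKO at p below 0.05 and 0 were lower, against 3.82% of all genes higher and 4.35% lower. Of 10733 tested protein-coding genes, 471 were higher and 286 lower at that threshold. DESeq2 also called 0 of the 10 at an adjusted p below 0.05, where it called 1.46% of genes. The 6 genes with both DKO libraries above both WT libraries were Cd5, Cd96, Btla, Cd200, Pdcd1 and Tigit, and no gene of the 10 lay below, where 19.8% of all genes lay above (22.3% of protein-coding genes) and 18.8% below. The log2 fold change was above 0 for 7 of the 10, against 48.1% of all genes and 5652 of the 10733 protein-coding genes. The median log2 fold change (DKO minus WT) of the 10 was 0.37, against −0.01 over all genes tested and 0.02 over the protein-coding ones. The genes were proposed with earlier results of these libraries known, so these counts describe the libraries and are not independent evidence of a direction. In bulk RNA, more cells of one kind and more RNA per cell cannot be told apart.

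**Figure D1:**
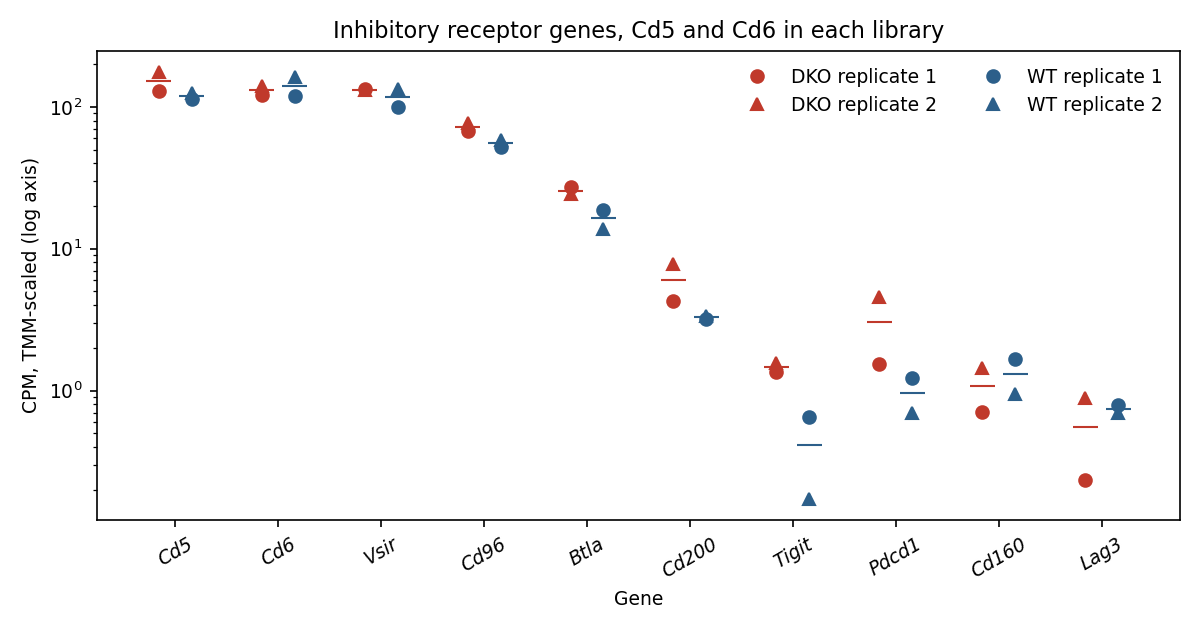
CPM of each gene on a log axis, with DKO (red) left of WT (blue), circles for replicate 1, triangles for replicate 2 and a bar at the mean of 2 libraries. The genes span from 0.173 CPM (Tigit, WT replicate 2) to 176 CPM (Cd5, DKO replicate 2), and for Cd5, Cd96, Btla, Cd200, Tigit and Pdcd1 both DKO points lie above both WT points.

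The 4 genes with the lowest unadjusted p, Btla, Cd96, Pdcd1 and Cd200, are shown with their promoters, the 300 bases from 250 before to 50 after the annotated start. The sequences are from RefSeq on GRCm38.p6 and are given on the strand of the gene, with each match to GGAAA or its reverse complement TTTCC in capitals. GGAAA is the core bound by NFAT, the calcium-dependent transcription factors of antigen receptor signalling, and is also contained in many sites of other factors. Windows were found for 8 of the 10 genes, 9 windows in all since Cd160 had a pair, and 5 of the 9 held the motif on either strand, against 61.3% of 32851 mouse promoters of the same length. The Btla window (chr16:45224087-45224386, plus strand) and the Cd200 window (chr16:45409004-45409303, minus strand) had no match. The Pdcd1 window (chr1:94052504-94052803, minus strand) had 2 adjoining matches just before the start. The Cd96 window (chr16:46120199-46120498, minus strand) had 5.
Btla: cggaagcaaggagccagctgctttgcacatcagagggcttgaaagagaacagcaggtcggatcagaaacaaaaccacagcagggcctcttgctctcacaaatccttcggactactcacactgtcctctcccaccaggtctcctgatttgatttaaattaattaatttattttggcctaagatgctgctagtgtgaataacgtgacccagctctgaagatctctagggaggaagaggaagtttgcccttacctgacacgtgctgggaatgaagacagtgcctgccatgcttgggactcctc
Cd96: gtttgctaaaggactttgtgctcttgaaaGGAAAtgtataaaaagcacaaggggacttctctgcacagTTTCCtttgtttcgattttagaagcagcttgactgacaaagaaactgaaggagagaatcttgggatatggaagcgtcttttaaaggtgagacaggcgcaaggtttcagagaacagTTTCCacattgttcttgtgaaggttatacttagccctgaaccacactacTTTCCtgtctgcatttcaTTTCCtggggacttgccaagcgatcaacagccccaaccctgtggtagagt
Pdcd1: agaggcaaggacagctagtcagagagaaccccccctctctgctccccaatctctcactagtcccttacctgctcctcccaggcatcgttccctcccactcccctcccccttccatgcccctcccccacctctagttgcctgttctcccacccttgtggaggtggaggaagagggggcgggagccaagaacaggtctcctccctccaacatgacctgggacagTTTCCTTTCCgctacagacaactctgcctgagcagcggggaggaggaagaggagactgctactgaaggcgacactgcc
Cd200: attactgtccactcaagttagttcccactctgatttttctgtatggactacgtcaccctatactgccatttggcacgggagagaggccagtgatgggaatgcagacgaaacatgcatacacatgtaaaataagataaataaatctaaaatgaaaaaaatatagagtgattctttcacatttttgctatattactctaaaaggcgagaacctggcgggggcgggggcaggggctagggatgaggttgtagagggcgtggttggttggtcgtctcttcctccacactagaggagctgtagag

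Cd5 and Cd6 encode related scavenger receptors that are held near the antigen receptor, and CD6 binds ALCAM on antigen-presenting cells. They are neighbours on chromosome 19 of GRCm38 (Cd5 at 10717116 to 10739002 and Cd6 at 10789341 to 10830058, both on the minus strand), 50.3 kb apart with no protein-coding gene between them. Cd5 had 129 and 176 CPM in DKO and 113 and 125 CPM in WT. Both DKO libraries were higher, by little for replicate 1 and more for replicate 2. The log2 fold change was 0.36 (SE 0.17, edgeR adjusted p = 0.648), and it was 0.14 without DKO replicate 2 and 0.58 without DKO replicate 1. Cd6 had 122 and 140 CPM in DKO and 119 and 162 CPM in WT, and the groups overlapped. Its log2 fold change was −0.10 (SE 0.17, edgeR adjusted p = 0.940).

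The ratio of Cd5 to Cd6 counts within a library does not depend on the scaling between libraries. Its log2 was 0.08 and 0.33 in DKO and −0.07 and −0.38 in WT, so the groups did not overlap. The means were 0.20 ± 0.18 in DKO and −0.22 ± 0.21 in WT (SD, n = 2 each), a difference of 0.43. An exact two-sided permutation test of 2 against 2 libraries cannot give a p below 0.333, and it gave 0.333. Against Cd3e, a chain of the antigen receptor complex, Cd5 was at −1.05 and −0.62 in DKO and −1.11 and −1.25 in WT on the log2 scale (exact permutation p = 0.333). These ratios, and those given for other genes, were chosen after the values of the single genes were seen.

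Btla encodes an immunoglobulin-family receptor that binds HVEM, the product of Tnfrsf14, and recruits SHP-1 and SHP-2. It lies on chromosome 16 (45224315 to 45257670, plus strand), 124.5 kb from Cd200. Btla had 27.2 and 24.2 CPM in DKO and 18.9 and 13.9 CPM in WT. Each DKO library exceeded both WT libraries, and the WT libraries differed more between themselves than the DKO libraries did. The group means were 25.7 ± 2.12 CPM in DKO and 16.4 ± 3.55 CPM in WT (SD, n = 2 each), and the log2 fold change was 0.65 (SE 0.19), a 1.56-fold difference. Its unadjusted p of 0.00788 was the lowest of the 10 genes, with an edgeR adjusted p of 0.347. Without WT replicate 1 the log2 fold change was 0.89 and passed edgeR's test (adjusted p = 0.0457), where 0.243% of genes were called higher, and without WT replicate 2 it was 0.46. Btla also passed edgeR's test when no low-count filter was applied (adjusted p = 0.0158), where 0.544% of genes were called higher. Over all settings tried its adjusted p ran from 0.0158 to 0.9997.

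Tnfrsf14 itself had 15.4 and 16.8 CPM in DKO and 17.1 and 18.3 CPM in WT, with both DKO libraries slightly below (log2 −0.13, edgeR adjusted p = 0.902). The log2 ratio of Btla to Tnfrsf14 counts was 0.82 and 0.52 in DKO and 0.14 and −0.40 in WT. The groups did not overlap, and the difference of the means was 0.80 (exact permutation p = 0.333). Cd160, which encodes a lipid-anchored receptor that also binds HVEM and is best known from NK cells and intestinal lymphocytes, was near the lower end of the range. It had 12 and 31 counts in DKO and 23 and 11 counts in WT, or 0.710 and 1.44 CPM and 1.66 and 0.954 CPM. The groups overlapped (log2 −0.28, SE 0.69, edgeR adjusted p = 0.961). Cd160 (chromosome 3, 96798763 to 96829351, minus strand) overlaps Pdzk1 on the other strand, which had 0 to 2 counts per library. Whether the authors' quantification used strand is not stated.

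Tigit and Cd96 encode receptors of the nectin-binding family that share the ligand CD155, the product of Pvr, with the costimulatory receptor CD226. Cd96 (chromosome 16, 46035657 to 46120251, minus strand) had 67.9 and 76.4 CPM in DKO and 52.4 and 58.0 CPM in WT. The groups did not overlap, with means of 72.1 ± 5.97 CPM in DKO and 55.2 ± 3.95 CPM in WT (SD, n = 2 each). The log2 fold change was 0.39 (SE 0.14, unadjusted p = 0.0221, edgeR adjusted p = 0.501) and ranged over 0.31 to 0.49 as single libraries were dropped. Tigit (chromosome 16, 43648867 to 43664146, minus strand) had 23 and 34 counts in DKO and 9 and 2 counts in WT, or 1.36 and 1.58 CPM and 0.649 and 0.173 CPM. Both DKO libraries were higher, from few counts. Pooled over libraries, the count ratio of DKO to WT was 3.42 (exact 95% interval 1.78 to 7.24, counting error only). The log2 fold change was 1.79 (SE 0.82, edgeR adjusted p = 0.633), and it was 3.03 without WT replicate 1 and 1.19 without WT replicate 2. The value of 3.03 rests in WT on the 2 counts of WT replicate 2, below the floor of 3 counts used here. Of the 31-base words in the annotated Tigit transcript, 8.37% also occur in transcripts of other genes, so part of its estimated counts may be uncertain. The deposited Tigit transcript differs in length from the annotated one on which these words were counted.

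CD226, the costimulatory partner, had 21.5 and 24.5 CPM of its RNA in DKO and 17.1 and 14.9 CPM in WT (log2 0.52, unadjusted p = 0.0126, edgeR adjusted p = 0.414). Cd96 and Cd226 therefore differed in the same direction, and the log2 ratio of Cd96 to Cd226 counts overlapped between the groups, at 1.66 and 1.64 in DKO and 1.62 and 1.96 in WT (exact permutation p = 1). The log2 ratio of Tigit to Cd226 was −3.98 and −3.96 in DKO and −4.72 and −6.43 in WT, without overlap (exact permutation p = 0.333). Pvr overlapped between the groups, with a log2 fold change of 0.02.

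Pdcd1 encodes PD-1, which binds PD-L1 and PD-L2 and acts mainly through SHP-2. It lies on chromosome 1 (94038305 to 94052553, minus strand). Pdcd1 had 26 and 99 counts in DKO and 17 and 8 counts in WT, or 1.54 and 4.59 CPM and 1.23 and 0.694 CPM. DKO replicate 2 stood well above the other 3 libraries, while DKO replicate 1 was close to WT replicate 1. The pooled count ratio of DKO to WT was 3.30 (exact 95% interval 2.14 to 5.30, counting error only). The log2 fold change was 1.66 (SE 0.64, unadjusted p = 0.0313, edgeR adjusted p = 0.549), and it was 0.69 without DKO replicate 2 and 2.26 without DKO replicate 1. Against Cd28, the costimulatory receptor on which PD-1 acts, Pdcd1 had log2 ratios of −5.67 and −4.35 in DKO and −6.32 and −6.68 in WT (exact permutation p = 0.333).

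Lag3 encodes a CD4-related receptor for MHC class II and lies on chromosome 6 (124904361 to 124911705, minus strand), 16.1 kb from Cd4 with no protein-coding gene between them. Lag3 had 4 and 19 counts in DKO and 11 and 8 counts in WT, at most 0.881 CPM, and the groups overlapped. The pooled count ratio of DKO to WT was 0.799 (exact 95% interval 0.416 to 1.55, counting error only). In the edgeR fit the SE was larger than the difference (log2 −0.38, SE 0.92, edgeR adjusted p = 0.961). Its neighbour Cd4 had 492 and 523 CPM in DKO and 364 and 424 CPM in WT, with both DKO libraries above (log2 0.37, SE 0.16, edgeR adjusted p = 0.616).

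Vsir encodes VISTA, an immunoglobulin-family receptor of naive T cells and myeloid cells. It lies on chromosome 10 (60346851 to 60372684, plus strand), within the span of Cdh23 on the other strand. Vsir had 133 and 130 CPM in DKO and 100 and 134 CPM in WT. WT replicate 1 was low and the other 3 libraries were alike, so the groups overlapped (log2 0.17, SE 0.16, edgeR adjusted p = 0.855). Without WT replicate 1 the log2 fold change was −0.03. Cdh23 had 1.60 and 2.46 CPM in DKO and 3.68 and 1.39 CPM in WT, and Psap, 44.3 kb from Vsir, had 110 and 111 CPM in DKO and 94.7 and 128 CPM in WT.

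Cd200 encodes a membrane glycoprotein that acts as a ligand for the inhibitory receptor CD200R1 and is found on activated and follicular T cells and on B cells. It lies on chromosome 16 (45382135 to 45409053, minus strand). Cd200 had 73 and 168 counts in DKO and 44 and 39 counts in WT, or 4.32 and 7.79 CPM and 3.17 and 3.38 CPM. Both DKO libraries were higher, and DKO replicate 2 was the highest. The group means were 6.06 ± 2.46 CPM in DKO and 3.28 ± 0.148 CPM in WT (SD, n = 2 each), with a log2 fold change of 0.89 (SE 0.35, unadjusted p = 0.0344, edgeR adjusted p = 0.573). It was 0.42 without DKO replicate 2 and 1.27 without DKO replicate 1. Cd200r1 had 3.25 and 4.50 CPM in DKO and 5.26 and 4.77 CPM in WT, with both DKO libraries below (log2 −0.37, edgeR adjusted p = 0.828).

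Levels of different genes were compared per length, as TPM (deposited values scaled for effective transcript length and library) summed over the transcripts annotated as protein-coding. In that order the genes were Cd5 (6.35 and 9.90 TPM in DKO, 4.90 and 4.64 TPM in WT), Cd6, Vsir, Cd96, Btla, Cd200, Tigit, Pdcd1, Cd160 and Lag3. Cd6 had 3.90 and 5.16 TPM in DKO and 3.37 and 3.89 TPM in WT, Vsir 3.73 and 3.87 TPM in DKO and 2.18 and 2.77 TPM in WT, and Cd96 3.16 and 4.06 TPM in DKO and 2.15 and 2.03 TPM in WT. The ranges of these 4 genes overlapped along the order. Cd96 stood apart from Btla (0.834 and 0.848 TPM in DKO, 0.510 and 0.322 TPM in WT), and Btla from Cd200 (0.164 and 0.280 TPM in DKO, 0.114 and 0.0823 TPM in WT), in every library. The gap between Btla and Cd200 held for coding transcripts alone. Over all transcripts Cd200 had 0.944 TPM in DKO replicate 2 and 0.340 TPM in WT replicate 2, above Btla in both. From Cd200 downward neighbouring ranges overlapped again, and Lag3 was lowest at 0.0121 and 0.0520 TPM in DKO and 0.0360 and 0.0268 TPM in WT. Among tested protein-coding genes, mean TPM over all transcripts put Cd5 at the percentile 96.4 and Vsir at 96.8, against 58.2 for Btla, 18.7 for Pdcd1 and for Tigit and 5.55 for Lag3.

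The estimated counts of a gene can sit on several transcripts, and their makeup was alike in both genotypes for Vsir and Cd6 but not resolved for Btla and Cd200. Of the Vsir counts, 18.5 and 17.4% in DKO and 17.1 and 18.2% in WT lay on Vsir-205, a transcript of 641 bases annotated as a retained intron. Because it is short, it held 53.5 and 54.5% of the Vsir TPM in DKO and 54.5 and 53.9% in WT. The main Cd6 transcript, Cd6-203, held 92.3 and 94.3% of the Cd6 counts in DKO and 92.7 and 93.4% in WT. For Btla, Btla-202 held 58.8 and 57.01% in DKO and 85.5 and 35.3% in WT, so the WT libraries lay on either side of the DKO libraries. The coding transcript Cd200-202 held 88.0 and 73.1% of the Cd200 counts in DKO and 94.6 and 74.9% in WT. Cd5, Pdcd1, Tigit and Cd96 had 1 transcript each in the deposited files. In the annotation used to join transcripts to genes, Cd5 has 4, Btla has 3 against 2 deposited and Cd6 has 6 against 5 deposited. The lengths of the deposited Cd5 and Tigit transcripts and of 1 of the Btla transcripts differ from those there, so the Btla shares hold for the authors' transcripts alone.

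**Figure D2:**
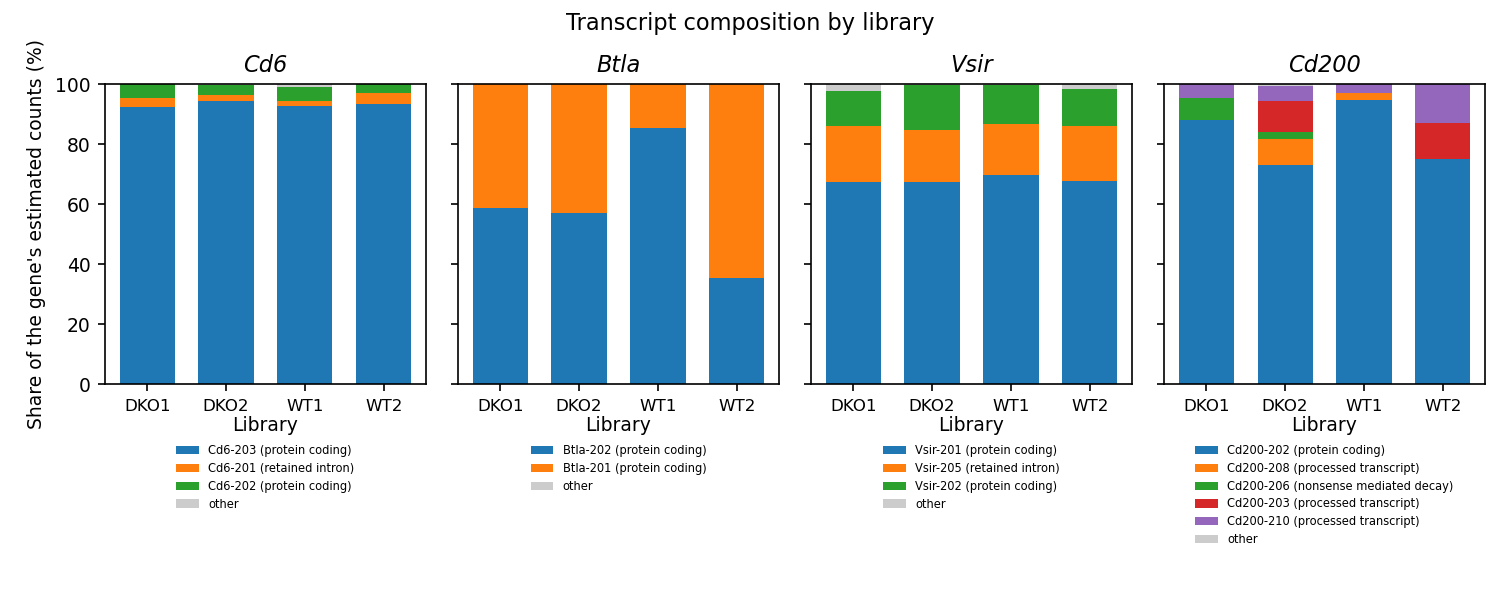
Share of each gene's estimated counts (percent) on its transcripts in the 4 libraries, for Cd6, Btla, Vsir and Cd200, with DKO left of WT and transcripts under 2% in every library joined as other. Vsir-205 takes 17.1 to 18.5% in all libraries, while Btla-202 ranges from 35.3 to 85.5% between the WT libraries.

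The size of every fold change depends on how libraries are put on one scale. The median of all genes moved from −0.01 with TMM factors to 0.33 with library totals alone. It was 0.90 when libraries were scaled to 5 RNA polymerase III transcripts. On the TMM scale each of these was lower in both DKO libraries. Among them Rn7s1 and Rn7s2 had the same counts in every library. In deposited TPM their groups overlapped, at 1670 and 1398 in DKO and 1549 and 2312 in WT. Changing library sizes moves all genes by nearly the same amount, so values relative to the median must lie close together between these scalings. Relative to the median of all genes, Btla was at 0.65 with library totals and 0.61 with the polymerase III scale. In the same order Cd96 was at 0.41 and 0.43, Cd5 at 0.39 and 0.42, Cd200 at 0.94 and 0.97 and Pdcd1 at 1.72 in both. Lag3 and Cd160 were at −0.33 and −0.25 with library totals and −0.30 and −0.27 with the polymerase III scale, and Cd6 at −0.06 and −0.02. Before the median was subtracted, Btla passed edgeR's test with library totals (log2 0.97, adjusted p = 0.0340), where 1.51% of genes were called higher. With the polymerase III scale 4 of the 10 genes passed, Btla, Pdcd1, Cd200 and Cd5 (edgeR adjusted p = 0.0320, 0.0350, 0.0320 and 0.0375), where 3.67% of genes were called higher.

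**Figure D3:**
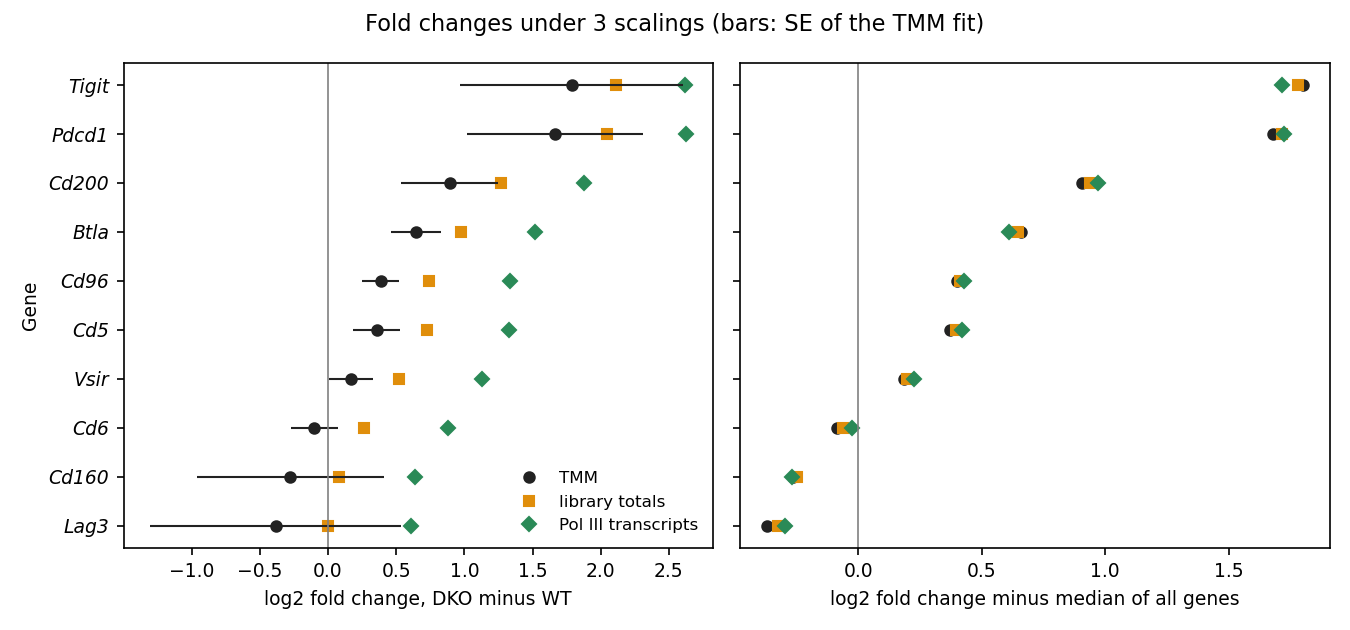
Log2 fold change (DKO minus WT) of the 10 genes under TMM factors, library totals and the polymerase III scale, on the left as fitted with the SE of the TMM fit as bars, and on the right minus the median of all genes. The scalings spread the fitted values by about the shift of the median. On the right the 3 values of each gene must lie close together, since the scalings change library sizes alone.

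Ligands and binding partners of the receptors were mostly low or differed little. Of 19 listed genes, 10 were tested and 0 passed edgeR's test in either direction, with a median log2 fold change of 0.10. None had an unadjusted p below 0.05, where 3.82% of all genes were higher and 4.35% lower. Selplg, which encodes the PSGL-1 that VISTA can bind, had 246 and 234 CPM in DKO and 183 and 215 CPM in WT (log2 0.27, edgeR adjusted p = 0.696). Lgals9, encoding galectin-9, and H2-K1, encoding a class I MHC chain, overlapped between the groups at log2 0.15 and 0.18. Cd274, the gene of PD-L1, had 15.7 and 14.2 CPM in DKO and 14.3 and 12.6 CPM in WT, with overlap. Pdcd1lg2, Alcam, Lgals3 and the class II genes were too low to be tested, H2-Ab1 having 0 and 13 counts in DKO and 3 and 8 counts in WT.

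Other inhibitory molecules and costimulatory receptors also lay somewhat higher in DKO, without a call. Of 16 other inhibitory genes 12 were tested, with 0 called by edgeR. At an unadjusted p below 0.05, 5 were higher and 0 lower, beside 3.82% and 4.35% of all genes. The median of the 12 was 0.31. In both DKO libraries 6 lay above WT and 0 below, where 19.8% of all genes lay above and 18.8% below. Cd101, which encodes an immunoglobulin-family inhibitor, had 5.09 and 7.56 CPM in DKO and 2.60 and 2.43 CPM in WT (log2 1.33, edgeR adjusted p = 0.247). Pag1, the adaptor that brings the kinase CSK to the membrane, had 105 and 101 CPM in DKO and 78.0 and 75.5 CPM in WT (log2 0.42, edgeR adjusted p = 0.377). Nt5e, which encodes the adenosine-producing enzyme CD73, was at log2 0.82 and Laptm5, a lysosomal protein that limits antigen receptor levels, at 0.41. Ctla4 overlapped at 3.19 and 3.99 CPM in DKO and 3.39 and 3.56 CPM in WT, and Havcr2, the gene of TIM-3, had 0 counts in both DKO libraries and 0 and 4 in WT.

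All 16 costimulatory genes were tested and 0 passed edgeR's test, with a median log2 fold change of 0.35. At an unadjusted p below 0.05, 5 were higher and 0 lower, beside 3.82% and 4.35% of all genes. DKO exceeded WT without overlap for 10 and lay below for 1, where 19.8% of all genes lay above and 18.8% below. Tnfrsf4, which encodes OX40, had 6.98 and 8.58 CPM in DKO and 2.67 and 3.64 CPM in WT (log2 1.31, edgeR adjusted p = 0.188). Slamf6 had 62.9 and 66.4 CPM in DKO and 45.9 and 45.4 CPM in WT (log2 0.50, edgeR adjusted p = 0.268). Cd2, the most abundant of the list, was at log2 0.33. The median of the 10 genes of the main list was thus close to that of the costimulatory list, and the difference between these lists was not tested.

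The listed signal transducers, which include adaptors such as Grb2 and Lcp2 that are not solely inhibitory, had a median near that of all genes. All 20 were tested and 0 passed edgeR's test, with a median log2 fold change of 0.05. At an unadjusted p below 0.05, 2 were higher and 0 lower, beside 3.82% and 4.35% of all genes. Ptpn6, the gene of SHP-1, had 151 and 135 CPM in DKO and 108 and 116 CPM in WT (log2 0.35, SE 0.14, edgeR adjusted p = 0.545). Cblb, a ubiquitin ligase that restrains activation, had 87.7 and 93.1 CPM in DKO and 71.1 and 64.9 CPM in WT (log2 0.41, edgeR adjusted p = 0.415), and Sla, an adaptor that promotes antigen receptor turnover, was at log2 0.27. Ptpn11, the gene of SHP-2, overlapped between the groups at log2 −0.11. Both DKO libraries lay above WT for 5 of the 20 and below for 4, beside 19.8% and 18.8% of all genes.

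Transcription factors known to act on these receptor genes had a median of 0.27 over 16 tested of 18 listed. None passed edgeR's test, and 5 were higher and 0 lower at an unadjusted p below 0.05, beside 3.82% and 4.35% of all genes. In both DKO libraries 7 lay above WT, beside 19.8% of all genes. Egr2, a zinc finger factor induced by antigen receptor signalling, had 7.93 and 8.95 CPM in DKO and 4.04 and 4.86 CPM in WT (log2 0.93, edgeR adjusted p = 0.295), and the related Egr3 was at 0.997. Nfatc1 had 90.3 and 107 CPM in DKO and 76.9 and 77.6 CPM in WT (log2 0.35, edgeR adjusted p = 0.566). Tcf7, the most abundant of the list and a factor of naive T cells, overlapped at log2 −0.12.

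**Figure D4:**
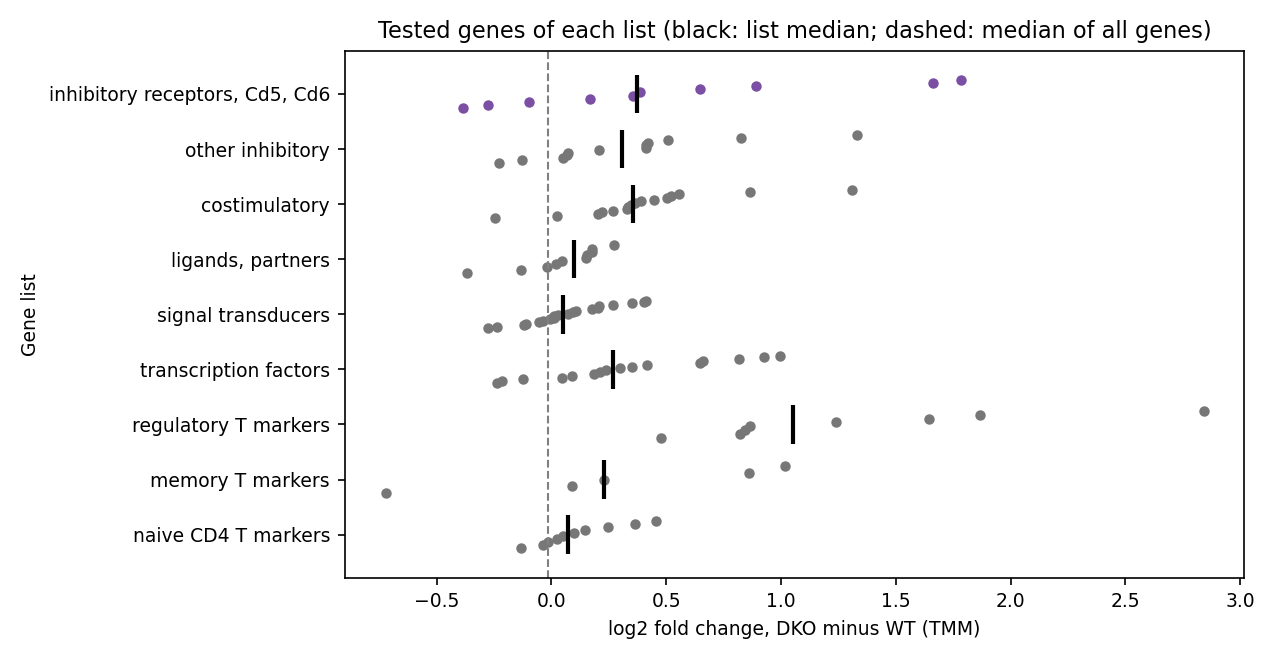
Log2 fold change (DKO minus WT, TMM) of every tested gene of 9 lists, with the list median in black and the median of all genes as a dashed line. Medians lie between 0.05 for the signal transducers and 1.05 for the regulatory T cell markers, and the 10 genes of the main list run from −0.38 to 1.79.

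Markers of regulatory T cells, which carry PD-1 and TIGIT more than naive cells do, lay higher in DKO beside these genes, although the sort had left out CD25+ cells. Of 10 listed, 8 were tested and 0 passed edgeR's test, with a median log2 fold change of 1.05. At an unadjusted p below 0.05, 6 were higher and 0 lower, beside 3.82% and 4.35% of all genes. Of the 8, 7 lay above WT in both DKO libraries, beside 19.8% of all genes. Summed over the list they had 127 and 147 CPM in DKO and 59.7 and 77.9 CPM in WT, and none of the 10 was at 0 in all libraries. Foxp3, which specifies regulatory T cells, had 87 and 226 counts in DKO and 25 and 29 counts in WT. Il2ra, the gene of CD25 itself, had 6.09 and 5.84 CPM in DKO and 1.88 and 3.21 CPM in WT (log2 1.24, edgeR adjusted p = 0.327). Ctla4, listed among the other inhibitory genes and not here, overlapped between the groups at log2 0.05. DKO replicate 2 was the highest library for 5 of the 8 tested markers (Foxp3, Ikzf2, Nrp1, Gpr83 and Tnfrsf9) and DKO replicate 1 for Il2ra, Izumo1r and Capg. Nrp1 had 5.44 and 8.999 CPM in DKO and 1.44 and 0.520 CPM in WT (log2 2.84, edgeR adjusted p = 0.0948), and Izumo1r, encoding a folate receptor relative and the most abundant of the list, had 77.4 and 75.0 CPM in DKO and 34.6 and 50.4 CPM in WT. The part of these cells in the values of Pdcd1, Tigit, Cd200 and the other genes of the main list was not tested.

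Among the markers of other cells 0 passed edgeR's test. Over all genes, 19.8% lay above WT in both DKO libraries. Of the memory T cell list 5 of 10 were tested and 3 lay above WT in both DKO libraries, summing to 63.1 and 68.4 CPM in DKO and 43.6 and 42.9 CPM in WT, with Cd44 at log2 0.86 (edgeR adjusted p = 0.102) and none at 0 in all libraries. Of the follicular helper list 3 of 8 were tested, Cxcr5 had 2.48 and 3.11 CPM in DKO and 1.30 and 1.39 CPM in WT, Sh2d1a overlapped, Ascl2 had no counts, and the list summed to 20.7 and 22.8 CPM in DKO and 16.2 and 19.9 CPM in WT. The CD8 and NK cell list, 4 of 10 tested and 2 above WT in both DKO libraries, summed to 39.5 and 36.6 CPM in DKO and 27.1 and 33.5 CPM in WT, with Klrd1 at log2 1.17, Prf1 at 0.009 and Ncr1 and Gzmb at 0 counts. The B cell list, 4 of 10 tested and 1 above, summed to 171 and 154 CPM in DKO and 146 and 191 CPM in WT, nearly all of it Ighm, with Cd79a at 18 and 28 counts in DKO and 10 and 1 in WT and with Blk at 0. The myeloid list, 3 of 10 tested and 0 above, summed to 3.61 and 6.73 CPM in DKO and 6.71 and 4.51 CPM in WT, with Itgam overlapping and S100a8 and S100a9 at 0. In the naive CD4 list Il7r had the lowest p (log2 0.45) and Trac, the most abundant, was at 0.05. Their part in the values of the main list was not tested.

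**Figure D5:**
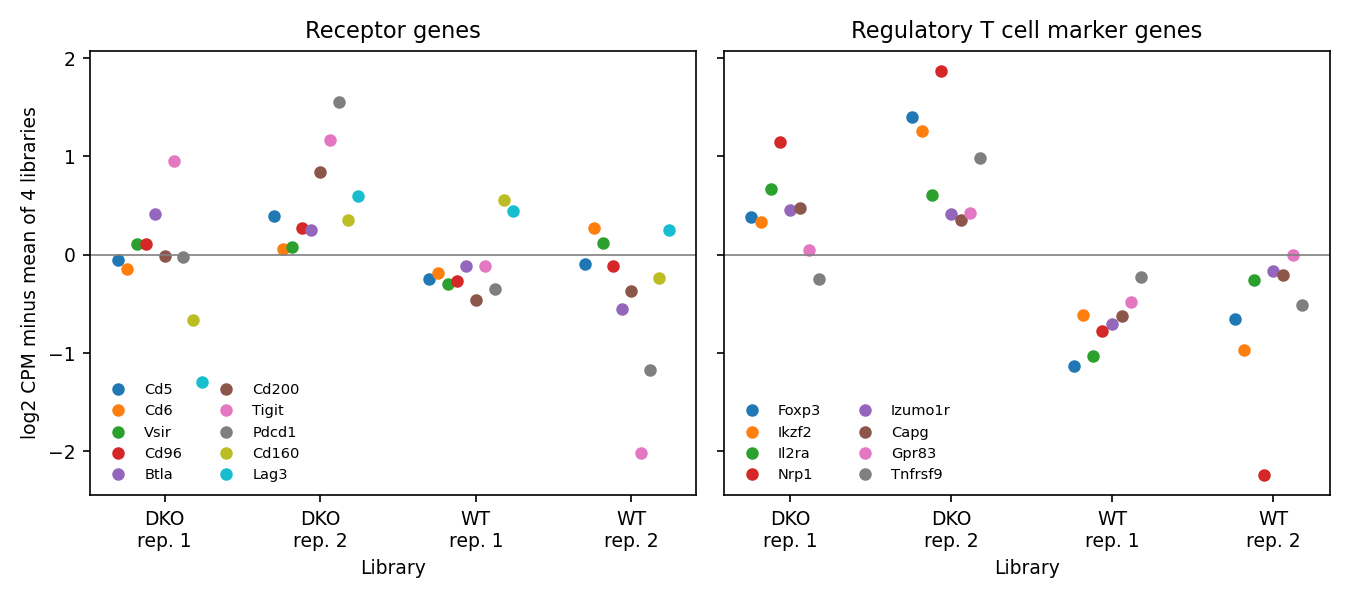
Log2 CPM minus the mean of the 4 libraries for the 10 genes of the main list (left) and the 8 tested regulatory T cell markers (right), with the DKO libraries left of the WT libraries. DKO replicate 2 is the highest library for Cd5, Cd96, Pdcd1, Cd200, Tigit and Lag3 and for Foxp3, Ikzf2, Nrp1, Gpr83 and Tnfrsf9, and DKO replicate 1 for Btla, Il2ra, Izumo1r and Capg.

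By Euclidean distance in centred log2 CPM, the nearest protein-coding gene was Gsto1 for Cd5 (0.04), Fan1 for Cd6 (0.04), Fitm2 for Btla (0.05), Smarcc1 for Cd96 (0.03), Ercc5 for Vsir (0.03) and Cd7 for Cd200 (0.15). It was Lad1 for Pdcd1 (0.40), Cyfip1 for Tigit (0.33), Galc for Lag3 (0.05) and Olfr1280 for Cd160 (0.06). Within a distance of 0.2 there were 118 genes for Cd5, 394 for Cd6 and 937 for Vsir, against 4 for Lag3 and 0 for Pdcd1 and for Tigit. With 4 libraries such likeness is a description only.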

How the data were processed

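RNA of naive CD4 T cells was measured in 2 DKO and 2 WT libraries made with a stranded total RNA kit for small inputs, per the labels' protocols. The authors deposited estimated counts per transcript from kallisto, which are not scaled, and TPM, which are scaled for effective length and library, per the file headers. The builds mm10 and GRCm38 are named in the submitters' processing notes, and version, strand setting and annotation were not given in the sources used here. Effective lengths are likewise deposited per transcript. Of 126782 transcripts, 125182 (98.7%) were joined by identifier to GENCODE M21 on GRCm38. Gene values are sums over transcripts, for 48858 genes, taken to the nearest whole number.

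Groups came from the sample titles, and nothing but the mention of pairs says that libraries of a group are separate animals, so p-values measure the spread between these libraries. DKO was compared with WT by edgeR 4.0.16 in R 4.3.3 (filterByExpr, TMM, robust quasi-likelihood F test), with Benjamini-Hochberg adjustment at 0.05 over 12863 genes. SE is the log2 fold change over the square root of F. Alternatives used other scalings and filters, DESeq2 1.42.0, an effective length offset, limma 3.58.1 on log2 TPM, coding genes or transcripts alone, a replicate block and each library left out. Functions were tested on simulated data. At a floor of 3 counts a gene has 0.168 to 0.216 CPM of the library total. Intervals and floors cover counting error only, and without molecular identifiers reads are not independent molecules.

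The 10 genes and all lists were chosen with earlier results of these data known. From each list the text names called genes, the lowest unadjusted p (3 per pathway list, 1 per marker list) and the most abundant. Other names were chosen after their values were seen. Shared 31-base words were counted on the joined annotation's transcripts.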

Additional observations from a re-analysis of the deposited data

How the results depend on the processing

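None of the 10 genes was called by DESeq2, with the replicate block, by limma on log2 TPM with a pseudocount of 0.1 or 1, with the effective length offset, with coding genes or coding transcripts alone or with at least 10 counts in each group mean. One or more were called higher with library totals (1), the polymerase III scale (4), no low-count filter (1) and when a library was left out (0 to 1), and the gene was Btla in each of those with 1. All genes called higher and lower numbered 7 and 9, against 194 and 66 with library totals, 472 and 22 with the polymerase III scale, 55 and 133 by DESeq2, 141 and 254 with no filter, 13 and 18 with the length offset, 35 and 16 with coding genes alone, 8 and 5 with coding transcripts alone, and 0 and 0 by limma with a pseudocount of 1. They were 12 to 34 and 28 to 131 when any 1 of the 4 libraries was left out. With the replicate block they were 53 and 90. The numbers were not shown to pair the mice, since replicate 1 minus replicate 2 correlated at −0.32 between the genotypes across genes, and with the numbers crossed, a choice made after seeing the data, the counts were 136 and 384. The signs of 4 genes that passed no test turned: Cd6 was at 0.26 with library totals, 0.88 with the polymerase III scale, 0.28 and 0.23 by limma (pseudocounts 0.1 and 1), and between −0.31 and 0.16 when a library was left out. Cd160 was at 0.0806, 0.64, 0.0276 and 0.00973 in the same settings and between −0.85 and 0.18, Lag3 at 0.00156 and 0.61 with the first pair and between −1.59 and 0.26, and Vsir between −0.0282 and 0.41. The median of all genes was 0.33 with library totals, 0.90 with the polymerase III scale and 0.31 and 0.12 by limma. It lay between −0.02 and 0.03 when a library was left out. The cause of the turns was not tested. Tigit, Pdcd1 and Lag3 had no value where a stricter filter removed them. Of the 10 genes, 6 lay above WT without overlap, beside 19.8% of all genes. In settings added after seeing the data the count was 7 beside 49.2% with library totals, 8 beside 71.9% with the polymerase III scale, 6 beside 48.1% with deposited TPM, 6 beside 19.2% with DESeq2 factors and 6 to 8 beside 31 to 38.5% with a library left out, so the share of all genes was larger wherever the count was. With deposited TPM Vsir lay above and Cd200 overlapped. Counts of 2 to 99 for Pdcd1, Tigit, Lag3 and Cd160 limit what could be called.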
